A study of Mus musculus with 6 samples.

Results

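A set of 32 genes that work in mitosis was followed in LK cells (negative for lineage markers and positive for Kit), a sorted bone marrow fraction that holds blood stem and progenitor cells. The genes were chosen by their role in division, and a gene was read from the bead array probes that the platform annotation gives its symbol. Of the 32 genes, 30 had a named probe and 21 had a probe that was detected, among 9000 named genes tested in all. NHD13 mice carry a transgene for the NUP98-HOXD13 fusion, known from human myelodysplastic syndrome and leukaemia. Cells of NHD13 transgenic mice were set against those of wild type littermates at 3 months of age, with 3 arrays per genotype and marrow pooled from 3 mice on each array. The labels do not give the transgene's promoter, and a pool does not show how its 3 mice differ.

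In mitosis, cyclin-dependent kinase 1 bound to A- and B-type cyclins drives chromosome condensation and spindle assembly. The spindle checkpoint holds back the anaphase-promoting complex until every chromosome is attached, after which cyclins are destroyed and the cell divides. Transcripts of most of these genes accumulate in late S phase and G2 and are low in resting cells, so their level in a cell population usually follows how many of its cells are dividing. In RNA from many cells, fewer dividing cells and less of a transcript in each dividing cell cannot be told apart.

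Late cell cycle genes are known to share a promoter layout in which the cell cycle genes homology region (CHR), bound by the MuvB core of the DREAM and MYB-MuvB complexes, lies near boxes for NF-Y. The promoters below show that layout in 4 genes measured here and its absence from the upstream flank of another. Sequences are from the RefSeq promoter table (GRCm38.p6), which held 25 of the 32 genes (all but Cdc25c, Incenp, Foxm1, Ccna2, Tpx2, Kif20a and Aurkb), and give the 250 bases upstream of the start, 5′ to 3′ on the gene's strand. Capitals mark CHR matches (TTTGAA or TTCGAA or TTTAAA) and NF-Y boxes (CCAAT), each on either strand, so an NF-Y box on the other strand reads ATTGG. The flanks lie at chr17:24251410-24251659, minus strand (Ccnf), chr1:189688087-189688336, minus strand (Cenpf), chr4:118437344-118437593, minus strand (Cdc20), chr5:30666636-30666885, plus strand (Cenpa) and chr6:66534971-66535220, plus strand (Mad2l1).
Ccnf: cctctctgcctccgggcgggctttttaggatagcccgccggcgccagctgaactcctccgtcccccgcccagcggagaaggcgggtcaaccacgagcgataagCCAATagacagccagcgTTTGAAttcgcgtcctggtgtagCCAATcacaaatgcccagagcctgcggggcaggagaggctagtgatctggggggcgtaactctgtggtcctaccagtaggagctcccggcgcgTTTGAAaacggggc
Cenpf: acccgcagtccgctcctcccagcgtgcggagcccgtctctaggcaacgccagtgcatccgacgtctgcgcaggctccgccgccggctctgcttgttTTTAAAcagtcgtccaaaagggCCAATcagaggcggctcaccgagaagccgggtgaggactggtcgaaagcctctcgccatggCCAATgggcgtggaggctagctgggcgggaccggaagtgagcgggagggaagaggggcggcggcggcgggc
Cdc20: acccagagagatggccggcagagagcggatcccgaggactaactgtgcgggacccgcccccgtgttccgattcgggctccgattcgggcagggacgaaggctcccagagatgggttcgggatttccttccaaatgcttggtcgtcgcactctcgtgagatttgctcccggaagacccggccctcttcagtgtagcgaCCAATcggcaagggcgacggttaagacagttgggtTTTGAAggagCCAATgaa
Cenpa: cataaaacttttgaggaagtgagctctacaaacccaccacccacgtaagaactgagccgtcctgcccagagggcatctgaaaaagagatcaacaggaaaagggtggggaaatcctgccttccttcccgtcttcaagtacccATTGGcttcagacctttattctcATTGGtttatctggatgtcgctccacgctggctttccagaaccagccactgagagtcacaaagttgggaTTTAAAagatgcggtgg
Mad2l1: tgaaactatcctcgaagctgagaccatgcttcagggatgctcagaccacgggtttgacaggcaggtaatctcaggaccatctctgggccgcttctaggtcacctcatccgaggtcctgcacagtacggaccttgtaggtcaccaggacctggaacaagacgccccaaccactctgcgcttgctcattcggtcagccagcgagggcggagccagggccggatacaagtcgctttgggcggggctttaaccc

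In Cdc20 the CHR began 18 bases before the start, between NF-Y boxes that began 53 and 8 bases before it. In Cenpa the CHR began 17 bases before the start, downstream of NF-Y boxes at 109 and 86 bases. Ccnf held a CHR at 130 and another at 14 bases, with NF-Y boxes at 147 and 107 bases. In Cenpf the CHR lay upstream of the boxes, at 154 bases, with the boxes at 132 and 71. The upstream flank of Mad2l1 held none of the motifs.

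Over the table's full window of 300 bases (250 before and 50 after the start), 22 of the 25 promoters held a CHR match (88%), against 28.8% of all 32851 promoters of the same length. An NF-Y box stood in 21 (84%), against 37.4% of all. Both stood in 20 (80%), against 11.3%. E2F sites (TTGGCGC or TTCCCGC or TTGCCGC or TTCGCGC, either strand), the usual mark of S phase genes, stood in 4 (16%), against 9.57%. In the upstream 250 bases alone, CHR matches stood in 15 of 25 (60%), against 26.2%, and both motifs in 13 (52%), against 9.21%. A match of these letters is not a measured binding site. No CHR or NF-Y match overlapped another kind of match in the 5 flanks shown.

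**Figure D1:**
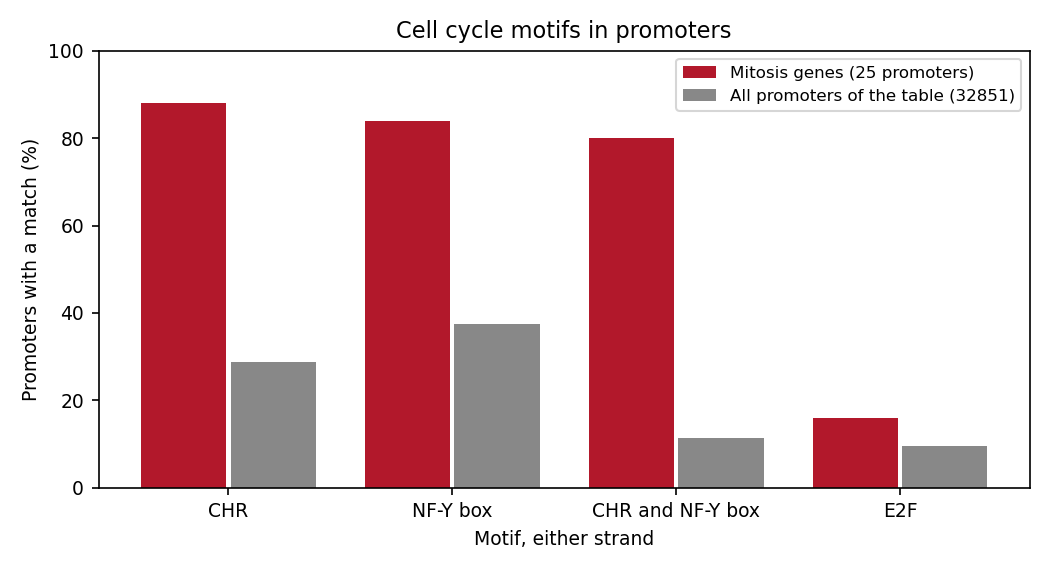
Share of promoters with a match to each motif, in percent, for the 25 mitosis gene promoters (red) and all 32851 promoters of the table (grey), over 300 bases. The CHR together with an NF-Y box stands in 80% of the mitosis gene promoters and in 11.3% of all promoters.

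No mitosis gene was called different between NHD13 and wild type LK cells. None of the 21 tested genes passed the adjusted threshold (limma, Benjamini-Hochberg over all tested probes, 0.05), where 50 of the 9000 named genes did (0.556%). With the replicate number as a block in the fit 0 of the 21 passed, beside 0.622% of all tested genes. Their differences, NHD13 minus wild type on the log2 scale of normalized intensity, ran from -0.21 for Kif23 to 0.45 for Ccnf, with adjusted p between 0.65 and 0.99. At an unadjusted p under 0.05, 1 of the 21 passed (Plk1), beside 7.66% of all tested genes. All 21 differed by less than 0.5, as did 85.7% of all tested genes.

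All 21 genes were detected on all 6 arrays, as were 83.2% of all tested genes, with 15 to 76 beads per probe, and the standard error over beads was at most 8.54% of a probe's intensity. The 95% interval of the difference lay within 1 log2 unit of 0 in all 21 genes, and within 0.5 in 7 genes. A difference of 1 log2 unit in either direction, which is a factor of 2 in intensity, thus lay outside all 21 intervals. These intervals are those of the brightest tested probe of each gene. They do not cover the other probes, of which 1 of Kif23 differed by 0.68. The median standard deviation within a genotype was 0.16 over the 21 genes and 0.25 over all tested genes.

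**Figure D2:**
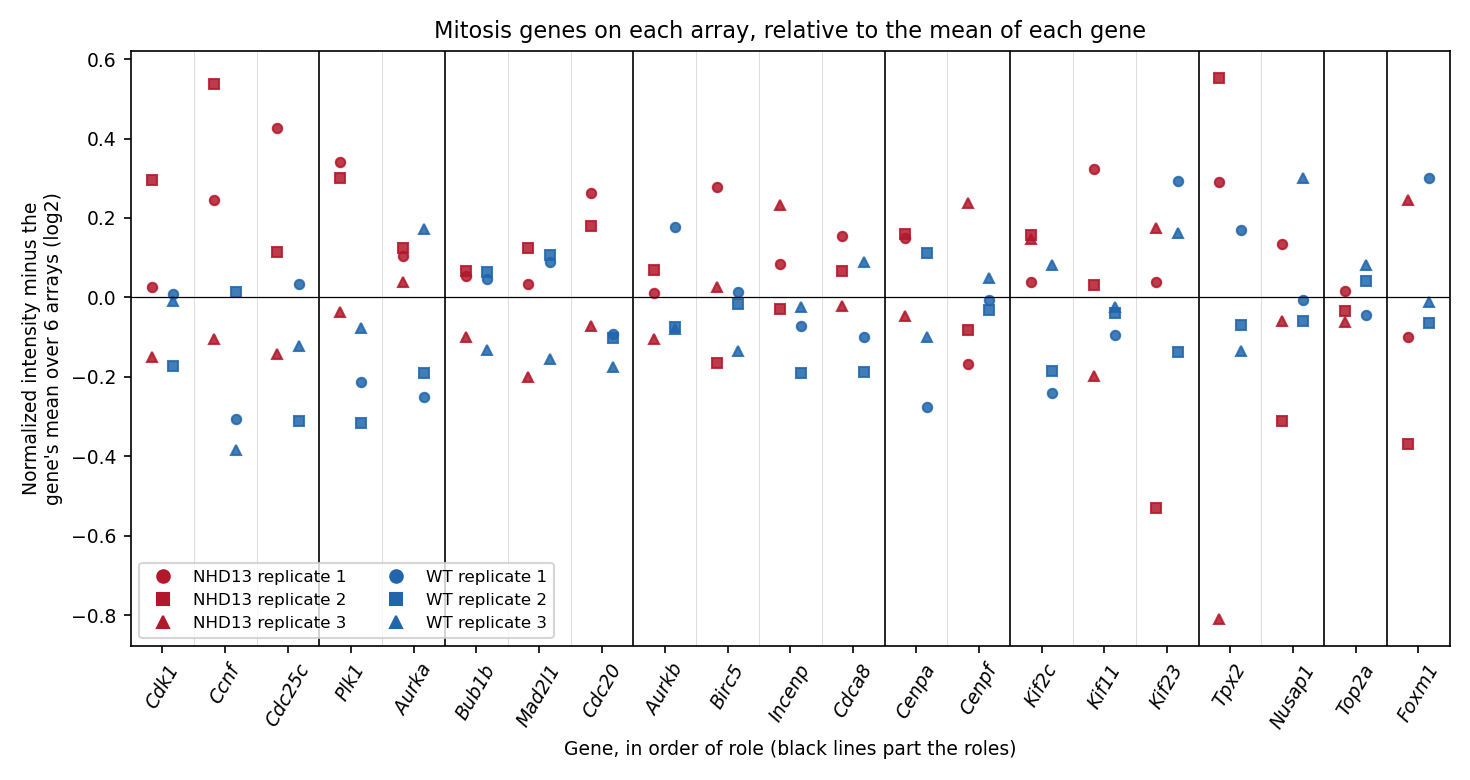
Normalized intensity of each of the 21 tested genes on each array, as the difference from the mean of the gene over the 6 arrays (log2); red, NHD13; blue, wild type (WT); the symbol gives the replicate number. The points of the genotypes overlap in all genes except Plk1 and Cdc20, where all 3 NHD13 points lie above the wild type points.

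In the values that follow, each level is a log2 of normalized intensity on 1 array, and each difference is the NHD13 mean minus the wild type mean with limma's standard error and adjusted p. Among the kinase and cyclins that start mitosis, Cdk1, the kinase itself, measured 11.44, 11.71 and 11.27 in NHD13 pools 1, 2 and 3, against 11.43, 11.25 and 11.41 in wild type pools 1, 2 and 3. NHD13 pool 2 was the highest and wild type pool 2 the lowest, and the groups overlapped. The result was a difference of 0.12 ± 0.17 (SE; adjusted p = 0.86), with a 95% interval of -0.29 to 0.52.

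Ccnf, cyclin F, a substrate receptor of an SCF ubiquitin ligase, had the largest difference of the 21 genes. It measured 7.64, 7.93 and 7.29 in NHD13 pools 1, 2 and 3, against 7.09, 7.41 and 7.01 in wild type pools 1, 2 and 3. In each numbered pair the NHD13 pool was the higher, yet NHD13 pool 3 lay under wild type pool 2, and the spread between pools left a difference of 0.45 ± 0.21 (SE; adjusted p = 0.67). Its interval reached from -0.057 to 0.96, the highest bound among the 21 genes.

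Cdc25c, the phosphatase that removes the inhibitory phosphates of Cdk1, measured 8.52, 8.21 and 7.96 in NHD13 pools 1, 2 and 3, against 8.13, 7.79 and 7.98 in wild type pools 1, 2 and 3. The groups overlapped, since NHD13 pool 3 lay below wild type pools 1 and 3, with a difference of 0.27 ± 0.20 (SE; adjusted p = 0.75). The probes of cyclins A2 and B2 (Ccna2 and Ccnb2), the partners of Cdk1, gave no detected signal, and cyclin B1 (Ccnb1) had no probe named here.

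Of the mitotic kinases, Plk1, the polo-like kinase of centrosome maturation and mitotic entry, measured 11.54, 11.50 and 11.17 in NHD13 pools 1, 2 and 3, against 10.99, 10.89 and 11.13 in wild type pools 1, 2 and 3. All 3 NHD13 pools lay above all 3 wild type pools, though NHD13 pool 3 and wild type pool 3 were only 0.041 apart. This gave a difference of 0.40 ± 0.17 (SE; adjusted p = 0.65), an intensity 1.32-fold higher on average, and it was the 1 gene whose 95% interval did not include 0 (0.0032 to 0.80). With the replicate number as a block, Plk1 had an unadjusted p of 0.061 (limma, adjusted p = 0.33), and the 1 mitosis gene under 0.05 was Ccnf, at 0.020 (adjusted p = 0.24). Of all tested genes, 12.5% had groups that did not overlap (6.71% with NHD13 higher), and so did 2 of the 21 mitosis genes, Plk1 and Cdc20, both with NHD13 higher.

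Aurka, Aurora kinase A of the spindle poles, measured 10.57, 10.60 and 10.51 in NHD13 pools 1, 2 and 3, against 10.22, 10.28 and 10.64 in wild type pools 1, 2 and 3. Wild type pool 3 was the highest of the 6 arrays, above every NHD13 pool, and the gene showed a difference of 0.18 ± 0.17 (SE; adjusted p = 0.79). The kinases Nek2 and Ttk, which act at the centrosome and in the spindle checkpoint, were not detected by any of their probes.

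The spindle checkpoint and the anaphase-promoting complex were read from 3 genes. Cdc20, the activator of that complex and the target of the checkpoint, measured 12.08, 12.00 and 11.75 in NHD13 pools 1, 2 and 3, against 11.73, 11.72 and 11.64 in wild type pools 1, 2 and 3. The NHD13 pools all lay above the wild type pools, with a difference of 0.25 ± 0.15 (SE; adjusted p = 0.72). All 4 of its probes lay above 0, between 0.13 and 0.43, and none passed.

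Mad2l1, which with Bub1b forms the complex that inhibits Cdc20, measured 11.25, 11.34 and 11.02 in NHD13 pools 1, 2 and 3, against 11.31, 11.33 and 11.07 in wild type pools 1, 2 and 3. Pool 3 was the lowest of each genotype, and the groups overlapped almost wholly, with a difference of -0.028 ± 0.16 (SE; adjusted p = 0.96). Bub1b differed by 0.014, with an interval of -0.33 to 0.36. Bub1, the checkpoint kinase, and Ube2c, the ubiquitin-conjugating enzyme of the anaphase-promoting complex, were not detected.

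All 4 members of the chromosomal passenger complex, which corrects faulty attachments and steers cytokinesis, were measured. Incenp, its scaffold, measured 10.89, 10.77 and 11.04 in NHD13 pools 1, 2 and 3, against 10.73, 10.61 and 10.78 in wild type pools 1, 2 and 3. Only NHD13 pool 2 lay within the wild type range, and the gene showed a difference of 0.19 ± 0.15 (SE; adjusted p = 0.76). Birc5 (survivin), which brings the complex to the centromere, measured 12.63, 12.19 and 12.38 in NHD13 pools 1, 2 and 3, against 12.37, 12.33 and 12.22 in wild type pools 1, 2 and 3. NHD13 pool 2 was the lowest of the 6 arrays and NHD13 pool 1 the highest, with a difference of 0.092 ± 0.17 (SE; adjusted p = 0.88). The kinase Aurkb differed by -0.016 and Cdca8 (borealin) by 0.13, with intervals of -0.38 to 0.34 and -0.23 to 0.49.

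At the centromere, Cenpa, the histone H3 variant that marks it, measured 14.15, 14.16 and 13.95 in NHD13 pools 1, 2 and 3, against 13.72, 14.11 and 13.90 in wild type pools 1, 2 and 3. Wild type pool 2 lay among the NHD13 pools, and the gene showed a difference of 0.18 ± 0.17 (SE; adjusted p = 0.79). Cenpf, a large protein of the outer kinetochore, measured 6.10, 6.18 and 6.50 in NHD13 pools 1, 2 and 3, against 6.26, 6.23 and 6.31 in wild type pools 1, 2 and 3. Its mean was nearly the same in both genotypes, with a difference of -0.0075 ± 0.16 (SE, limma, adjusted p = 0.99), and NHD13 pool 3 was the highest. These levels lay near the lowest value of a detected probe (5.38 to 5.48 depending on the array), which limits how far the difference can be read. The other probe of Cenpf was detected on 1 array only. The kinetochore motor Cenpe was not detected.

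Of the kinesin motors, Kif2c, which takes apart microtubules at the centromere, measured 10.28, 10.39 and 10.38 in NHD13 pools 1, 2 and 3, against 10.00, 10.05 and 10.32 in wild type pools 1, 2 and 3. Wild type pool 3 lay within the NHD13 range while the other wild type pools lay below it, with a difference of 0.23 ± 0.15 (SE; adjusted p = 0.73). Kif11, which pushes the spindle poles apart, differed by 0.10 with an interval of -0.31 to 0.52, and Kif20a was not detected.

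Kif23, the central spindle motor needed for cytokinesis, had the lowest difference of the 21 genes. Its brightest probe measured 10.84, 10.27 and 10.98 in NHD13 pools 1, 2 and 3, against 11.10, 10.67 and 10.97 in wild type pools 1, 2 and 3. NHD13 pool 2 stood apart below the other pools, and wild type pool 2 was the lowest of its genotype, with a difference of -0.21 ± 0.23 (SE; adjusted p = 0.81). The 4 probes of Kif23 did not move together. Of the other probes, a pair differed by -0.27 and -0.19, while the other one measured 9.32, 9.32 and 8.50 in NHD13 pools 1, 2 and 3, against 8.17, 8.55 and 8.38 in wild type pools 1, 2 and 3. That is a difference of 0.68 in the other direction, not past the threshold either (adjusted p = 0.61).

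Among spindle assembly factors, Tpx2, the activator of Aurka on spindle microtubules, measured 7.41, 7.67 and 6.31 in NHD13 pools 1, 2 and 3, against 7.29, 7.05 and 6.98 in wild type pools 1, 2 and 3. It varied most among the 21 genes, with NHD13 pool 2 highest and NHD13 pool 3 lowest of all arrays and a standard deviation of 0.72 in NHD13 and 0.16 in wild type pools (n = 3 each). The difference was 0.022 ± 0.35 (SE), and its interval of -0.81 to 0.86 is the widest of the set.

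Nusap1, which bundles spindle microtubules, measured 10.54, 10.10 and 10.35 in NHD13 pools 1, 2 and 3, against 10.40, 10.35 and 10.71 in wild type pools 1, 2 and 3. Wild type pool 3 was the highest and NHD13 pool 2 the lowest, with a difference of -0.16 ± 0.19 (SE; adjusted p = 0.82). Hmmr, a spindle protein and hyaluronan receptor, was not detected by either of its probes.

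Top2a, the topoisomerase that untangles chromosomes, measured 12.00, 11.95 and 11.92 in NHD13 pools 1, 2 and 3, against 11.94, 12.03 and 12.07 in wild type pools 1, 2 and 3. The 6 arrays lay close together, with a difference of -0.054 ± 0.14 (SE; adjusted p = 0.92) and an interval of -0.38 to 0.27. Mki67, the gene of the proliferation antigen Ki-67, had no probe named here.

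Foxm1, the transcription factor that activates many of these genes in G2, measured 8.46, 8.19 and 8.80 in NHD13 pools 1, 2 and 3, against 8.86, 8.49 and 8.55 in wild type pools 1, 2 and 3. NHD13 pool 2 was the lowest and wild type pool 1 the highest, the groups overlapped, and the gene showed a difference of -0.15 ± 0.21 (SE; adjusted p = 0.85). Its other probe differed by -0.21.

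**Figure D3:**
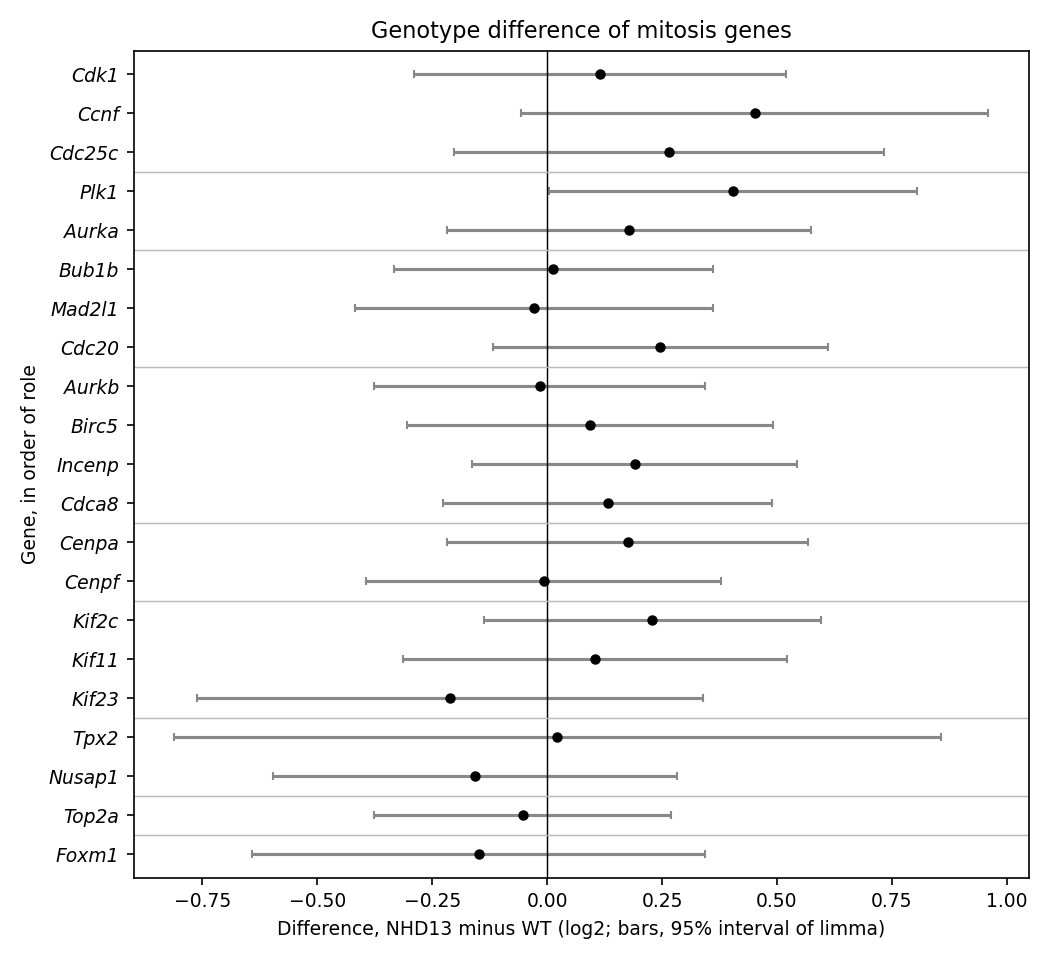
Difference between NHD13 and wild type (WT) for each of the 21 tested genes (log2 of normalized intensity, NHD13 minus WT), with the 95% interval from limma; grey lines part the roles. The points run from -0.21 to 0.45, and all intervals except that of Plk1 include 0.

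Of the 21 genes, 14 lay above 0 and 7 below, a share of 66.7% above, where 54.1% of all tested genes lay above. The median difference was 0.10 over the 21 genes and 0.030 over all tested genes. NHD13 was above wild type in 16 of 21 genes in the arrays numbered 1, in 15 in those numbered 2 and in 11 in those numbered 3, with median differences of 0.15, 0.14 and 0.011. Of the 9000 tested genes, NHD13 was above in 4686, 4838 and 4776 for numbers 1, 2 and 3. It was higher in all 3 numbered pairs in 7 of 21 mitosis genes, beside 24% of all tested genes, and lower in all 3 pairs in 0 of 21, beside 1676 of 9000. Leaving out NHD13 replicate 3 gave a median difference of 0.18, and leaving out the pair of arrays numbered 3 gave 0.24.

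The genes were also compared by replicate number, since the labels number the arrays of both genotypes 1 to 3 without saying what a number shares. None of the 21 passed the F test of the number in a limma fit with genotype (adjusted p from 0.26 to 0.99), and 17 of 9000 tested genes did (0.189%). At an unadjusted p under 0.05 there were 0 of 21 mitosis genes, beside 19.2% of all tested genes. The lowest p was that of Kif23 (adjusted p = 0.26), whose mean over both genotypes was 10.97 in the arrays numbered 1, 10.47 in those numbered 2 and 10.97 in those numbered 3. Its second probe gave an unadjusted p of 0.014 (adjusted p = 0.18). Ccnf came next (adjusted p = 0.27), with its means highest in the arrays numbered 2 (7.36, 7.67 and 7.15 for numbers 1, 2 and 3).

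The 9 undetected genes (Ccnb2, Ccna2, Nek2, Ttk, Bub1, Ube2c, Cenpe, Kif20a and Hmmr) gave no detected signal in either genotype. Their 15 probes were detected on 0 of 6 arrays, with values from 4.41 to 5.34, where the lowest value of a detected probe was 5.38 to 5.48 depending on the array. Ccna2, cyclin A2, measured 4.77, 4.78 and 4.74 in NHD13 pools 1, 2 and 3, against 4.86, 4.75 and 4.60 in wild type pools 1, 2 and 3. Ube2c measured 4.66, 5.21 and 4.78 in NHD13 pools 1, 2 and 3, against 5.30, 4.78 and 5.34 in wild type pools 1, 2 and 3. No fold is given for these genes, since their probes were detected in neither genotype. An undetected probe cannot tell an absent transcript from a probe that does not work.

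Probes of 1 gene also differed in detection. Cdk1 had a probe detected on all 6 arrays and others detected on 1 and on 0 arrays. In all, 8 of the 46 probes of the 21 tested genes were not tested. Of the 11 genes with more than 1 tested probe, 3 had probes on both sides of 0 (Kif23, Mad2l1 and Nusap1). The second probe of Mad2l1 differed by 0.37 and that of Nusap1 by 0.30, against -0.028 and -0.16 for the brightest. Over all 38 tested probes of the set, 26 lay above 0 and 0 passed, with 2 at an unadjusted p under 0.05.

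Other genes of mitosis were taken from a list of 100, with kinetochore, condensin, kinesin, cytokinesis and anaphase-promoting complex genes among them. None of the 77 tested passed in limma, beside 0.556% of all tested genes, and 3 had an unadjusted p under 0.05, beside 7.66%. Of the 77, 63 lay above 0 (81.8%), beside 54.1% of all tested genes, and the median difference was 0.10. By number, 58 of the 77 lay above 0 in the arrays numbered 1, 60 in those numbered 2 and 33 in those numbered 3, where the median was -0.042. Ska3, which holds microtubules to kinetochores, differed by 0.54 ± 0.17 (SE, adjusted p = 0.46), and Ncapg2, a condensin subunit, by 0.44 ± 0.17 (adjusted p = 0.60). Of 9 tested activators of late cell cycle transcription (MuvB, NF-Y and E2F subunits among them) 0 passed, beside 0.556% of all tested genes. At an unadjusted p under 0.05 there were 0 of the 9, beside 7.66%. Mybl2, which joins MuvB, differed by 0.17 ± 0.14 (SE, adjusted p = 0.76), and E2f3, an activating E2F, by 0.19 ± 0.17 (adjusted p = 0.79). Of 39 tested DNA replication genes 0 passed, beside 0.556% of all tested genes, and 1 had an unadjusted p under 0.05, beside 7.66%. Of the 39, 31 lay above 0 (79.5%), beside 54.1%, with a median of 0.11. Ccne2, cyclin E2 of S phase entry, differed by 0.48 ± 0.16 (SE, limma, adjusted p = 0.53). For numbers 1, 2 and 3, 35, 29 and 20 of these 39 lay above 0.

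Genes that restrain division lay on both sides of 0. None of 15 tested passed, beside 0.556% of all tested genes. At an unadjusted p under 0.05 there were 4 of the 15, beside 7.66%, and the median difference was -0.081. Rb1, the retinoblastoma protein, differed by 0.63 ± 0.19 (SE, limma, adjusted p = 0.46), and Cdkn2c, an inhibitor of the G1 kinases, by -0.65 ± 0.23 (adjusted p = 0.54). The lowest difference of the list was that of Cdkn1a, -1.40 ± 0.55 (SE, limma, adjusted p = 0.62). The highest was that of Cdkn1c, 0.66 ± 0.25 (adjusted p = 0.61).

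Lineage genes varied far more between the same arrays than the mitosis genes did. Per array, the median deviation of the 21 mitosis genes from their 6-array means was 0.10, 0.068 and -0.058 in NHD13 pools 1, 2 and 3, against -0.0060, -0.069 and -0.023 in wild type pools 1, 2 and 3. The arrays thus lay within 0.17 of each other. That span was 0.11 over all tested genes, 0.28 over the other mitosis genes and 0.24 over the DNA replication genes. For 18 genes of granulocyte-monocyte progenitors, such as Elane and Mpo, the median deviation was -0.13, -2.57 and 0.97 in NHD13 pools 1, 2 and 3, against 0.90, -0.34 and 1.05 in wild type pools 1, 2 and 3. These spanned 3.61, with NHD13 pool 2 far below the rest, the array on which the mitosis genes stood at 0.068. For 20 erythroid genes it was 0.50, 0.38 and -0.18 in NHD13 pools 1, 2 and 3, against -0.44, 0.14 and -0.30 in wild type pools 1, 2 and 3, a span of 0.93. By genotype, neither list had a member past the threshold in limma, and their median differences were -1.05 and 0.39. At an unadjusted p under 0.05 there were 0 granulocyte-monocyte and 3 erythroid genes, beside 7.66% of all tested genes. By replicate number, 17 of the 18 granulocyte-monocyte and 10 of the 20 erythroid genes had an unadjusted p under 0.05. Over all tested genes that share was 19.2%. In both lists together 1 gene passed, Slc4a1, the red cell anion exchanger (limma, adjusted p = 0.032), beside 0.189% of all tested genes. Of 14 tested genes on a stem cell list, 4 lay above 0 (28.6%) and 10 below, where 54.1% of all tested genes lay above. Their median difference was -0.67. At an unadjusted p under 0.05 (limma) there were 9 of the 14, beside 7.66% of all tested genes. The groups did not overlap in 7 of the 14, beside 12.5% of all tested genes. Slamf1 was the highest, at 0.88 (limma, adjusted p = 0.62). By genotype 2 of the 14 passed, beside 0.556% of all tested genes. They were Robo4, a receptor of the roundabout family, and Meis1, a homeobox partner of HOX proteins. Both were lower in NHD13 cells (limma, adjusted p = 0.014 and 0.048). Robo4 and Tie1 (-1.07) were each detected on 0 of 3 NHD13 and 3 of 3 wild type arrays, so they were tested only through their wild type signal. Esam (-2.33) was detected on 1 NHD13 and 3 wild type arrays, and Hlf (0.38) on 3 NHD13 and 1 wild type array. The counts and the median of this list include these genes. Whether the make-up of the pools plays a part in the mitosis genes' values was not tested.

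**Figure D4:**
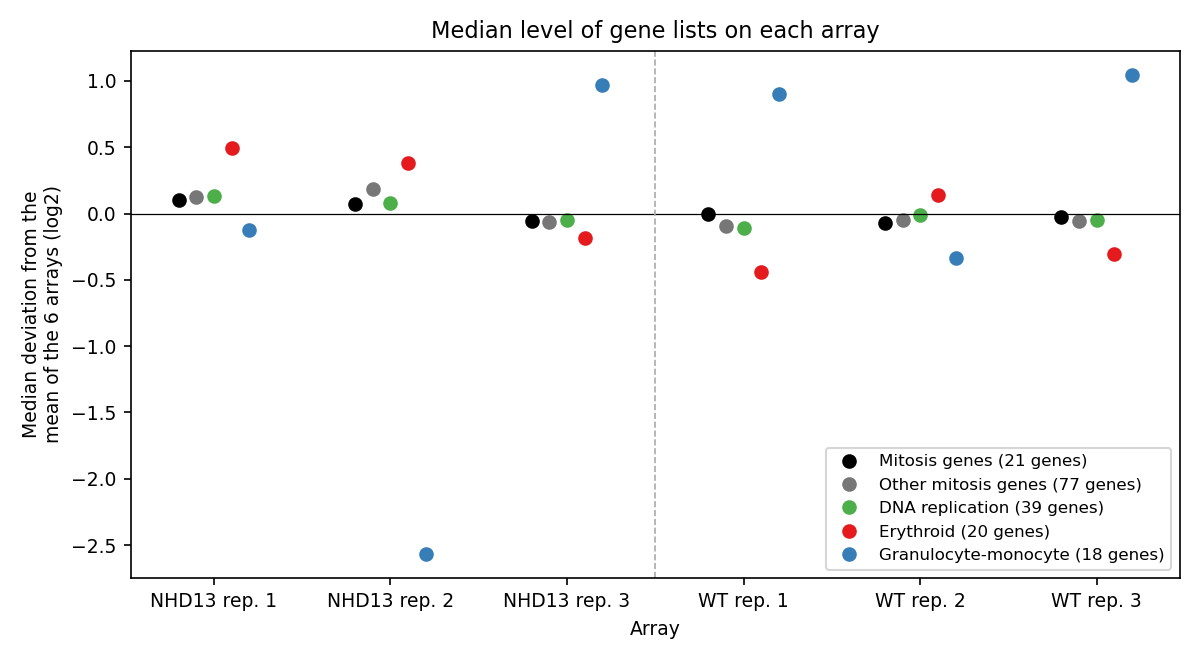
Median deviation from the 6-array mean (log2 of normalized intensity) of each gene list on each array; black, the 21 mitosis genes; the dashed line parts NHD13 from wild type (WT) arrays. The mitosis genes span 0.17 over the 6 arrays, the other mitosis genes 0.28 and the DNA replication genes 0.24. Granulocyte-monocyte genes span 3.61 and reach their lowest value on NHD13 replicate 2.

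The arrays detected 15983 to 16836 of 45281 probes. Kit, by which the cells were sorted, was detected on all 6 arrays, and of the 6 lineage markers with a named probe, Cd4, Cd8a, Itgam and Klrb1c were detected on 0, while Cd3e and Ms4a1 were each detected on 1 of 3 NHD13 and 2 of 3 wild type arrays. The labels name no batch or date, and they do not say whether the 3 pools of a genotype were collected apart, so the p-values measure the spread between these pools.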

How the data were processed

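Labelled RNA of 6 pools was read on mouse bead arrays. The deposited table holds, per the file headers, the mean intensity of a probe, neither background-subtracted nor normalized, a count of beads, a standard error of their signal and the detection p-value. The authors also deposited a table of processed intensity for these arrays, linear and in the same rank order, which served as an alternative. The scanner software is not given in the sources used here. Genotype and number were read from the column names.

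Intensity was normalized with neqc in limma 3.58.1 (R 4.3.3), which adds 16 before quantile normalization and a log2 transform. Probes were tested if detected (p under 0.05) on at least 3 of 6 arrays (16518 of 45281), by lmFit and eBayes, two-sided, with Benjamini-Hochberg adjustment over those probes. A gene was read from its tested probe of highest mean, by the platform annotation's symbol (1 symbol for 34885 probes, several for 18, none for 10378), levels of unlike probes not being comparable. The fits were run on simulated data with independent noise for each probe and planted differences larger than any seen in the mitosis genes. Such data do not test how the fits handle differences of the size seen here. Full values are given for the 2 members per role of smallest p (by genotype and by number), the 3 highest and 3 lowest differences, Cdk1 and Foxm1. Of the stem cell list, the genes called by genotype were named. The 2 genes of smallest p were named in the lists of other mitosis genes, activators and genes that restrain division. In the DNA replication list only the gene of smallest p was named. Elane, Mpo, Slc4a1, Slamf1, Tie1, Esam, Hlf, Cdkn1a and Cdkn1c were named after their values were seen. Promoters shown are the first 4 of these by the number test with both motifs, and 1 with none.

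Deviations from the genotype means correlated across probes at 0.19, 0.67 and 0.54 between arrays numbered 1, 2 and 3. All lay over 0.1, the cut taken for pairing, but arrays of unlike number reached 0.24, above the pair numbered 1. Whether the numbers mark real pairs is thus not settled, so the main fit had no block. The replicate block was an alternative, beside other background corrections, scalings, filters, weights and probe choices. The members and lists were chosen with earlier results of these data known.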

Additional observations from a re-analysis of the deposited data

How the results depend on the processing

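No mitosis gene passed by genotype under any of the 11 changes of processing or the 9 omissions of arrays (each array in turn, and both arrays of each number), and none passed by replicate number where that test was run. With the replicate block 0 passed, with a lowest adjusted p of 0.24. The lowest adjusted p under any alternative was 0.063, for Plk1 with array weights. The count over all named genes, 50, ranged from 7 to 342 with changed processing (342 with array weights, 56 with the replicate block), from 1 to 61 without 1 array (1 without WT replicate 1, 4 without WT replicate 3, 16 without NHD13 replicate 1 and 24 without WT replicate 2) and from 0 to 16 without both arrays of a number. By number, the 17 became 0 to 371. The median difference of the mitosis genes, 0.10, was 0.19 with array weights and 0.025 with no detection filter, which adds the 9 undetected genes. It ranged from 0.058 to 0.24 with arrays left out. The count above 0, 14 of 21, was 8 of 11 with the second probe of each gene and 11 to 16 with arrays left out. Signs held in 11 of the 21 genes and changed at least once in 10, none of them called. With other probe choices, Kif23 was 0.0030 over the mean of its probes, Mad2l1 0.17 and Nusap1 0.070, and with the second probe Mad2l1 was 0.37 and Nusap1 0.30. Array weights gave 0.0021 for Mad2l1 and 0.014 for Nusap1, and median scaling gave -0.12 for Tpx2. With arrays left out the ranges were -0.28 to 0.43 for Tpx2, -0.13 to 0.074 for Cenpf, -0.062 to 0.24 for Cdk1, -0.053 to 0.24 for Kif11, -0.35 to 0.00029 for Kif23, -0.11 to 0.065 for Mad2l1, -0.10 to 0.069 for Aurkb, -0.049 to 0.067 for Bub1b and -0.023 to 0.21 for Birc5. Among genes that kept their sign, leaving out 1 array still moved Foxm1 to -0.0027 (NHD13 replicate 2) and -0.036 (WT replicate 1), Cdc25c to 0.12 (NHD13 replicate 1) and Cenpa to 0.081 (WT replicate 1). The causes were not tested. With 3 arrays per genotype, the median half-width of the 95% interval was 0.40 over the mitosis genes, so smaller differences could not be resolved. That interval is not adjusted for the number of probes tested. Larger differences could also miss the adjusted threshold, as did 0.45 for Ccnf (limma, adjusted p = 0.67). Undetected probes limit what can be said of 9 genes.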
